A study of Homo sapiens with 6 samples.

Results

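Death receptors are cell-surface proteins that can trigger programmed cell death from outside the cell. The 9 genes described here were listed by name for their place in this extrinsic death pathway, not for their measured values. They are the ligand gene TNFSF10, the receptor genes FAS, TNFRSF10A, TNFRSF10B and TNFRSF10D, the adaptor gene FADD, the initiator caspase genes CASP8 and CASP10 and the caspase-like inhibitor gene CFLAR. They make up 9 of the 27968 genes in the deposited gene tables, and their annotated transcripts make up 64 of the 70006 in the transcript tables.

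RNA was sequenced from T47D, a line of human breast cancer cells of luminal type that carry the estrogen receptor. The cells received either a control siRNA or an siRNA that the labels call specific for HOTAIR-N, one version of the noncoding transcript HOTAIR, with a lipid transfection reagent, and RNA was taken 48 hours later. Each group held 3 libraries from independent transfections of this single line, grown in RPMI medium with serum. A single siRNA label stands for each group, so the target and the siRNA itself cannot be told apart. P-values measure the spread between these transfections.

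When the ligand TRAIL, encoded by TNFSF10, binds the receptors DR4 and DR5 (TNFRSF10A and TNFRSF10B), or when FAS ligand binds FAS, the receptors recruit FADD. FADD in turn gathers procaspase-8 and procaspase-10, which become active when they are brought together. The products of CFLAR, known as c-FLIP, join the same complex and limit or modulate this activation, and TNFRSF10D encodes a decoy receptor that binds TRAIL without a complete death domain.

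Library totals ranged from 31777001 to 36707169 expected counts, so that a level of 1 CPM (the unit of counts used here, scaled to library size by TMM) stood for 32.9 to 36.4 counts. HOTAIR was measured at 16.2, 16.1 and 16.6 CPM with the control siRNA and at 5.65, 5.63 and 5.68 CPM after transfection of the HOTAIR-N siRNA. That is 34.7% of the control level, with a log2 fold change of -1.53 (edgeR adjusted p = 2.1e-09, SE 0.07). These values are for the whole HOTAIR gene, since the version named HOTAIR-N was not matched to an annotated transcript. Of 14919 tested genes, 71.1% were called at an adjusted p under 0.05, 36.2% higher and 34.8% lower with the HOTAIR-N siRNA, and for 73.4% the groups did not overlap. All 8 luminal epithelial markers examined were above 1 CPM on average, with a summed level of 8813 to 9678 CPM in the control libraries and 7358 to 8009 CPM in the HOTAIR-N siRNA libraries. Within that list ESR1, PGR and KRT18 were at 32.1%, 36.4% and 65.8% of control, and CDH1 rose 1.86-fold. Of 5 blood cell, 5 fibroblast and 4 endothelial markers, CD68 and COL1A1 were above 1 CPM on average. The summed level was 2.71 to 2.94 against 3.39 to 4.32 CPM for the blood list, 27.7 to 32.0 against 23.5 to 27.4 CPM for the fibroblast list and at most 0.247 CPM for the endothelial list. The part of these markers in the results was not tested.

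Of the 9 genes, 8 had enough counts to be tested. The edgeR quasi-likelihood test called 5 of them higher (TNFSF10, FAS, CASP8, CASP10 and CFLAR) and 1 lower (TNFRSF10B) with the HOTAIR-N siRNA, and did not call TNFRSF10A and FADD. For the same 6 called genes the groups did not overlap. The total of 6 of 8 called is near the 71.1% of all tested genes, so the number of calls does not set these genes apart. Their median log2 fold change was 0.49, where that of all tested genes was 0.02. CASP10 ranked 30th and TNFSF10 ranked 394th of 14919 genes when ordered from the largest to the smallest log2 fold change. In bulk RNA, fewer cells that make a transcript and less of it per cell cannot be told apart.

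**Figure D1:**
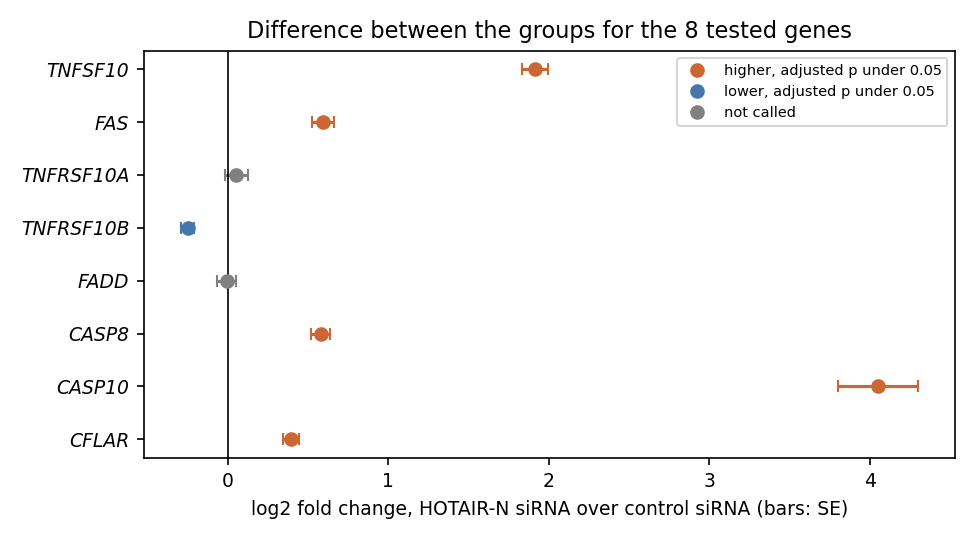
Log2 fold change (HOTAIR-N siRNA over control siRNA, horizontal axis) of the 8 tested genes, with bars of 1 standard error. CASP10 (4.05) and TNFSF10 (1.91) lie far to the right, FAS, CASP8 and CFLAR lie between 0.39 and 0.59, TNFRSF10B lies at -0.25, and TNFRSF10A and FADD were not called.

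TNFSF10, the gene for TRAIL, rose 3.77-fold. Its levels were 12.4, 12.9 and 12.1 CPM in control siRNA replicates 1, 2 and 3 and 50.9, 48.1 and 41.9 CPM in the HOTAIR-N siRNA replicates. Every HOTAIR-N siRNA library lay above every control library. The means were 12.5 ± 0.435 and 47 ± 4.59 CPM (SD, n = 3), a log2 fold change of 1.91 (SE 0.08, edgeR adjusted p = 8.4e-10), with a 95% interval of 3.24 to 4.38 for the fold. Nearly all of the signal came from the transcript NM_003810, which encodes the full-length 281-codon ligand and held 92.5% ± 4.38 of the gene's transcripts in the controls and 92.1% ± 2.46 after the HOTAIR-N siRNA (SD, n = 3). That transcript rose 3.78-fold (log2 fold change 1.92, SE 0.11, edgeR adjusted p = 0.00016), and its share of the gene did not differ detectably (log2 share change -0.00, SE 0.05, limma adjusted p = 0.98).

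Because TNFSF10 is known as an interferon-responsive gene, its upstream sequence is shown. The 250 bases before its start site (RefSeq promoter table, GRCh38.p14, chr3:172523431-172523680, minus strand, 5′ to 3′) hold 2 matches to the interferon-stimulated response element core GAAANNGAA, both on the opposite strand and set in capitals, at -186 to -178 and at -54 to -46 from the start.
TNFSF10: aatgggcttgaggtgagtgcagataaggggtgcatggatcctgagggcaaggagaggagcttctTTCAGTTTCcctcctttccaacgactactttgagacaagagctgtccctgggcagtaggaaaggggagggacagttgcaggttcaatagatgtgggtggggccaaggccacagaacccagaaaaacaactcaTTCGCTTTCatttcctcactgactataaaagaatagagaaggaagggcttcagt
A match to this core on either strand was found in 8.11% of the 35116 promoter windows of that table, which begin at the same distance before the start but, unlike the stretch shown, run on past it. A match describes letters only and does not show that a factor binds there.

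The 4 receptor genes did not move together. FAS rose, TNFRSF10B fell, TNFRSF10A was not called and TNFRSF10D was almost silent. FAS, the receptor for FAS ligand, was at 45.1, 50 and 42.2 CPM in the control libraries and at 64.5, 71.3 and 71.0 CPM in the HOTAIR-N siRNA libraries. All 3 HOTAIR-N siRNA values were above the highest control value. The mean went from 45.8 ± 3.95 to 68.9 ± 3.83 CPM (SD, n = 3), or 1.51-fold (log2 fold change 0.59, SE 0.07, edgeR adjusted p = 7.5e-06, 95% interval of the fold 1.32 to 1.72). Its ligand gene FASLG was not tested, with at most 0.0286 CPM in any library, which is the level of 1 count. In the RefSeq gene table FAS overlaps ACTA2, the gene of smooth muscle actin, which went from 16.3 to 62.2 CPM (log2 fold change 1.93, SE 0.07, edgeR adjusted p = 2.58e-10). Counting with or without strand is not stated in the sources used here, so the 2 genes could share reads, and the part of this in the value of FAS was not tested. The antisense gene FAS-AS1, which also overlaps FAS, had 8.35 counts in the control libraries together and 11.6 in the HOTAIR-N siRNA libraries.

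FAS makes membrane-bound and soluble receptors by splicing. Exon 6 of 9, which encodes the transmembrane segment, is present in NM_000043 (335 codons) and absent from NM_152871 (314 codons), and the 63 bases by which these transcripts differ are shown (GENCODE annotation, GRCh38, chr10:89010753-89010815, plus strand).
FAS exon 6: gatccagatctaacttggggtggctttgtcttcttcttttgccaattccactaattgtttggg
The transcript with exon 6 rose 1.54-fold (log2 fold change 0.62, SE 0.07, edgeR adjusted p = 0.0014) and held 94.7% ± 1.79 of the gene's transcripts in the controls and 96.2% ± 0.651 after the HOTAIR-N siRNA (SD, n = 3). The transcript without it held 1.55%, 3.26% and 2.59% in the control libraries and 0.97%, 1.13% and 0.69% in the HOTAIR-N siRNA libraries. These ranges do not overlap, but the change in share did not pass the test (log2 share change -1.30, SE 0.37, limma adjusted p = 0.11), nor did the level, at 0.701, 1.61 and 1.08 against 0.608, 0.790 and 0.497 CPM (log2 fold change -0.84, SE 0.45, edgeR adjusted p = 0.23).

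The TRAIL receptor genes TNFRSF10A and TNFRSF10B, which lie in one receptor cluster on chromosome 8, gave different results. TNFRSF10A, encoding DR4, was at 16.9, 16.3 and 15.04 CPM with the control siRNA and at 17.2, 17.4 and 15.5 CPM with the HOTAIR-N siRNA, and these ranges overlap (log2 fold change 0.05, SE 0.07, edgeR adjusted p = 0.52). The 95% interval of its fold ran from 0.903 to 1.19. TNFRSF10B, encoding DR5, was at 110.6, 112.7 and 110.1 CPM in the controls and at 91.7, 94.8 and 93.8 CPM after the HOTAIR-N siRNA. All 3 HOTAIR-N siRNA values were below every control value, and the replicates were close together, at 111.2 ± 1.39 and 93.4 ± 1.59 CPM (SD, n = 3). The level was 84.0% of control (log2 fold change -0.25, SE 0.04, edgeR adjusted p = 0.00022). The RefSeq gene table places RHOBTB2 across TNFRSF10B, and RHOBTB2 went from 14.7 to 21.8 CPM (log2 fold change 0.57, SE 0.08, edgeR adjusted p = 6.9e-05), the opposite direction. These 2 genes could share reads in the same way as FAS and ACTA2, and the part of this in the value of TNFRSF10B was not tested. The ratio of TNFRSF10B to TNFRSF10A in TPM, a unit that takes account of transcript length, was 2.62, 2.77 and 2.92 in the controls and 2.14, 2.18 and 2.42 after the HOTAIR-N siRNA, without overlap. With 3 libraries against 3, a 2-sided exact permutation test of such a ratio cannot pass 0.05, and none was run.

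DR5 is made in a long and a short form, and the long form was called lower. NM_003842 (440 codons) was at 71.05, 65.8 and 74.9 CPM with the control siRNA and at 52.3, 51.4 and 54.95 CPM with the HOTAIR-N siRNA. It fell to 74.9% of control (log2 fold change -0.42, SE 0.06, edgeR adjusted p = 0.0036). NM_147187 (411 codons) was at 38.6, 43.1 and 34.6 CPM against 39.9, 43.2 and 38.3 CPM, and these ranges overlap (log2 fold change 0.06, SE 0.09, edgeR adjusted p = 0.69). The short form held 35.4% ± 3.33 of the gene's transcripts with the control siRNA and 43.65% ± 2.66 after the HOTAIR-N siRNA (SD, n = 3), but the test of the share itself did not call a difference (log2 share change 0.31, SE 0.08, limma adjusted p = 0.099). A difference in response between the forms is therefore not shown.

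TNFRSF10D, the decoy receptor gene, was near the limit of detection. It had 1, 1 and 0 counts in the control libraries and 0, 6 and 3 after the HOTAIR-N siRNA, too few for a test. The 2 counts against 9 give a ratio of 4.83 with a 95% counting interval of 1 to 46.0, which covers counting error only. TNFRSF10C, the neighbouring gene for the other membrane decoy of TRAIL, went from 8.70 ± 0.537 to 11.95 ± 0.771 CPM (SD, n = 3), or 1.37-fold (log2 fold change 0.46, SE 0.08, edgeR adjusted p = 0.00026).

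FADD, the adaptor that links the receptors to the caspases, was not called. Its levels were 57.8, 58.9 and 62.8 CPM in the control libraries and 63.2, 60.2 and 55.4 CPM in the HOTAIR-N siRNA libraries, so that the control range lies within the other. The log2 fold change was -0.01 (SE 0.06, edgeR adjusted p = 0.93), its sign depended on the scaling and on single libraries, and the 95% interval of the fold ran from 0.887 to 1.12. Its neighbour PPFIA1 on chromosome 11 fell from 149 to 119 CPM (log2 fold change -0.33, SE 0.04, edgeR adjusted p = 2.28e-05).

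Both initiator caspase genes rose, CASP10 from close to nothing. CASP10 had 3, 11 and 11 counts in the control libraries and 149, 133 and 137 in the HOTAIR-N siRNA libraries, or 0.0841, 0.328 and 0.315 against 4.09, 4.05 and 3.97 CPM. The groups are far apart, and the 3 HOTAIR-N siRNA libraries lie within a few percent of each other. The fold was 16.6, with a 95% interval of 10.3 to 26.7 (log2 fold change 4.05, SE 0.25, edgeR adjusted p = 2.6e-08). CASP8, which encodes the main initiator of the pathway, was at 22.3, 23.1 and 21.2 CPM with the control siRNA and at 34.4, 33.0 and 32.2 CPM with the HOTAIR-N siRNA. All 3 values after the HOTAIR-N siRNA were higher, with means of 22.2 ± 0.948 and 33.2 ± 1.08 CPM (SD, n = 3). The rise was 1.49-fold (log2 fold change 0.58, SE 0.06, edgeR adjusted p = 2.5e-06, 95% interval of the fold 1.33 to 1.67). Per length, CASP10 remained far below CASP8, since the ratio of CASP10 to CASP8 in TPM was 0.00638 ± 0.00165 with the control siRNA and 0.0806 ± 0.00446 after the HOTAIR-N siRNA (SD, n = 3).

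After the HOTAIR-N siRNA, CASP10 reads were assigned mostly to NM_032977, which encodes a 522-codon protein. Corrected for length, NM_032977 held 48.4% ± 7.515 of the gene's transcripts there, and the shorter NM_001306083 held 49.5% ± 4.51 (SD, n = 3). NM_032977 had 0 expected counts in each control library and 111, 108 and 117 in the HOTAIR-N siRNA libraries (edgeR adjusted p = 0.00081). Against a floor of 3 counts over the control group, the ratio of its assigned counts was 121. That ratio takes the placing of the few control reads on other forms as given, so it is not a lower bound for the transcript itself. For the whole gene the fold was 16.6. The 247-codon transcript NM_001306083 had 1.71, 0.59 and 0.68 counts against 31.2, 24.5 and 20.01, which makes 3 against 76 counts and a ratio of 27.2 with a 95% interval of 8.96 to 134.8 that covers counting error only. The fitted fold, which depends on the prior count, was 17.6 (95% interval 5.75 to 54.0, edgeR adjusted p = 0.0036). The few control reads were placed on other forms, with 10.4 counts of control replicate 2 on NM_001206524 and 10.3 counts of control replicate 3 on NM_001230. At that depth the forms present in the control cells cannot be read from these libraries, and neither tested CASP10 transcript was called for its share.

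Of 5 tested CASP8 transcripts, 2 were called higher and 3 were not called, beside 32% of all tested transcripts called in either direction. NM_001080124 (464 codons) went from 9.79, 9.40 and 10.8 to 17.2, 16.5 and 16.3 CPM, 1.67-fold (log2 fold change 0.74, SE 0.09, edgeR adjusted p = 0.0018). NM_001080125 (538 codons) went from 2.92, 3.01 and 2.93 to 6.38, 7.02 and 5.50 CPM, 2.13-fold (log2 fold change 1.09, SE 0.15, edgeR adjusted p = 0.0036). NM_033355 (479 codons) was at 6.62, 8.21 and 5.19 against 6.82, 5.92 and 7.34 CPM, with overlapping ranges and a log2 fold change of 0.01 (SE 0.20, edgeR adjusted p = 0.99). The 464-codon and 538-codon forms were higher in every HOTAIR-N siRNA library, whereas the 479-codon form was not called. NM_033358 (235 codons) was also at a higher level in each of those libraries, 1.70-fold, but did not pass the test (log2 fold change 0.76, SE 0.27, edgeR adjusted p = 0.088).

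The coding part of the 479-codon transcript differs from that of the 464-codon transcript by a 45-base exon, exon 6 of 10 (GENCODE annotation, GRCh38, chr2:201272898-201272942, plus strand). With lengths of 2766 and 2747 bases, these transcripts also differ outside the coding part. The exon is shown because the deposited estimates separate these forms.
CASP8 exon 6: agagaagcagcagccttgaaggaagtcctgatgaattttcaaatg
The 479-codon form held 26.4% ± 4.29 of the gene's transcripts with the control siRNA and 17.5% ± 2.15 after the HOTAIR-N siRNA (SD, n = 3). Its share did not pass the test (log2 share change -0.56, SE 0.17, limma adjusted p = 0.13), so a shift between the forms is not shown.

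A match to the interferon core of the TNFSF10 promoter was also found at the first CASP8 start site in the RefSeq table, on the opposite strand and spanning the start itself, from -2 to 6. IRF1, a transcription factor of interferon signalling, rose 2.81-fold from 5.53 ± 0.278 to 15.5 ± 1.98 CPM (SD, n = 3, log2 fold change 1.49, SE 0.10, edgeR adjusted p = 7.1e-08). Its part in the levels of TNFSF10 or CASP8 was not tested.

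CFLAR, the gene of the caspase-8 modulator c-FLIP, rose 1.31-fold. It was at 42.3, 45.1 and 44.2 CPM in the control libraries and at 58.6, 55.3 and 58.8 CPM in the HOTAIR-N siRNA libraries. The groups did not overlap, with means of 43.8 ± 1.45 and 57.6 ± 2.00 CPM (SD, n = 3, log2 fold change 0.39, SE 0.05, edgeR adjusted p = 2.9e-05, 95% interval of the fold 1.19 to 1.45). The ratio of CFLAR to CASP8 in TPM was 1.42, 1.47 and 1.56 with the control siRNA and 1.33, 1.27 and 1.38 with the HOTAIR-N siRNA. The inhibitor gene thus stayed above CASP8 per length in all 6 libraries, and each HOTAIR-N siRNA ratio was below every control ratio. The ratio of FADD to CASP8 in TPM went from 3.69 ± 0.358 to 2.42 ± 0.0662 (SD, n = 3), also without overlap.

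CFLAR is annotated with 29 transcripts, of which 20 had a count and 8 were tested. The deposited values divide reads among forms that share most of their sequence, and values of single forms are uncertain. NM_003879, which encodes the long form of 480 codons, was at 4.40, 4.35 and 5.76 CPM with the control siRNA and at 16.7, 15.2 and 16.7 CPM with the HOTAIR-N siRNA. It rose 3.35-fold (log2 fold change 1.74, SE 0.14, edgeR adjusted p = 0.00053), and its share of the gene's transcripts went from 3.21% ± 0.574 to 7.88% ± 0.210 (SD, n = 3, log2 share change 1.33, SE 0.13, limma adjusted p = 0.0055). With control replicate 2 and HOTAIR-N siRNA replicate 3 both left out, the share change was 1.24 (limma adjusted p = 0.074), and edgeR's diffSpliceDGE did not call it (0.90, adjusted p = 0.67).

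A near copy of that transcript, NM_001127183, has the same coding length and carried 10.1, 12.4 and 3.62 CPM with the control siRNA and 10.0, 1.40 and 3.33 CPM with the HOTAIR-N siRNA. When NM_003879 and NM_001127183 were added together, the levels were 14.5, 16.7 and 9.38 CPM in the controls and 26.8, 16.6 and 20 CPM after the HOTAIR-N siRNA. CFLAR transcripts without a matched coding length were left out of these sums. These sums overlap between the groups, so the rise of NM_003879 is not a separable rise of the long protein form. NM_001127184, the transcript of the short c-FLIP form that lacks the caspase-like domain, was at 11.2, 12.9 and 11.8 against 14.2, 15.1 and 14.6 CPM. Those ranges do not overlap, but the log2 fold change of 0.29 (SE 0.09) was not called in the fit of all transcripts (edgeR adjusted p = 0.05 after rounding). Corrected for length, NM_001127184 held 70.8% ± 0.627 of the gene's transcripts with the control siRNA and 63.9% ± 5.97 after the HOTAIR-N siRNA (SD, n = 3). Its share was not called (log2 share change -0.11, SE 0.07, limma adjusted p = 0.47).

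**Figure D2:**
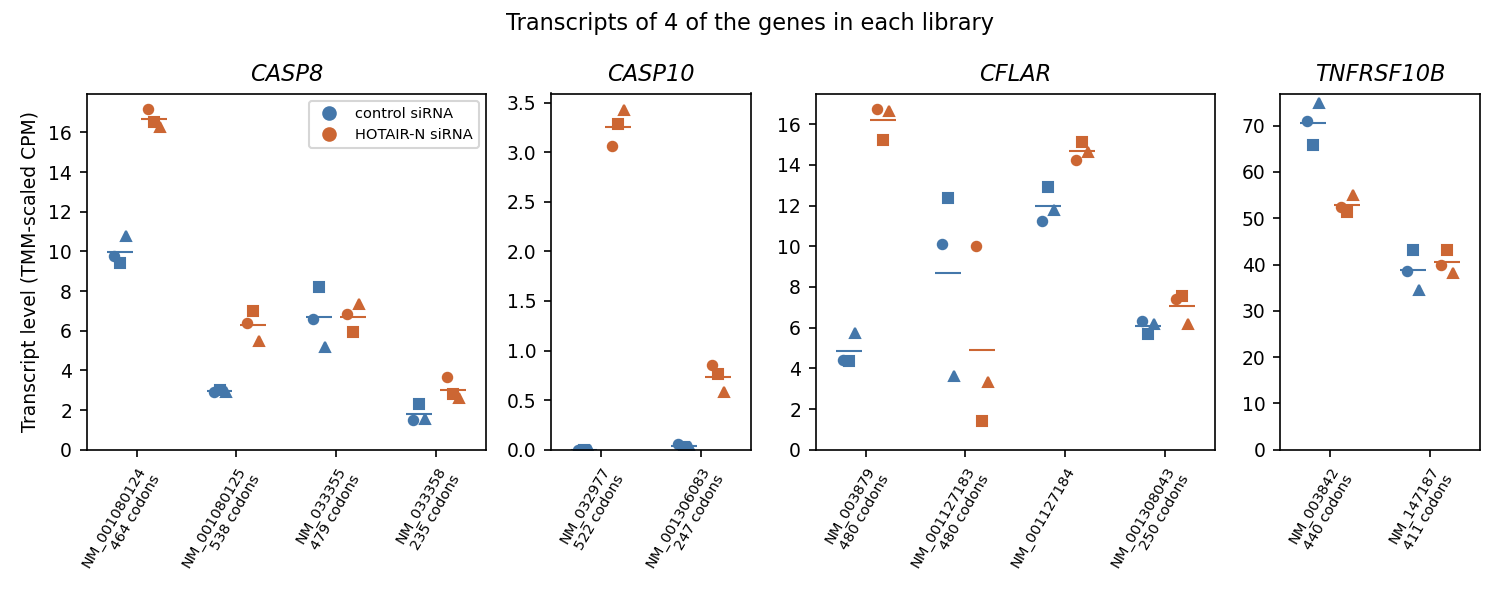
Level (CPM, vertical axes on separate scales) of selected transcripts of CASP8, CASP10, CFLAR and TNFRSF10B, with control siRNA libraries in blue, HOTAIR-N siRNA libraries in orange, lines at group means, and circles, squares and triangles for replicates 1, 2 and 3. CASP10 transcripts lie near 0 in the controls. Of the 2 CFLAR transcripts shown with 480 codons, NM_001127183 varied widely within each group and NM_003879 varied less.

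Across the 9 genes, 48 of the 64 transcripts had a count in some library, 16 were at 0 in all, and 26 were tested. Of these, 7 were called higher and 1 lower, a share close to the 32% of all tested transcripts. Of 24 transcripts tested for their share of the gene, 1 was called, where 8.25% of all tested transcripts were.

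Matches to the NF-kappaB consensus, a motif bound by the factor that inflammatory signals activate, were searched in the same promoters and occur in 11.3% of the 35116. FAS had 1 match, at -157 to -148 from the start site listed as 2, and CFLAR had 1, at -97 to -88 from the start site listed as 1. The other start sites of FAS and CFLAR held no match to this consensus. Both matches are shown in capitals within 30 bases of these promoters (RefSeq table, GRCh38.p14, plus strand, chr10:88991264-88991293 for FAS and chr2:201118609-201118638 for CFLAR).
FAS: ggtcgctggaGGGGGACCCCggttggagag
CFLAR: cgcggggggcGGGGAATTCCgcagacagga
The table held 12 start sites for 5 of the 9 genes (TNFSF10, FAS, FADD, CASP8 and CFLAR), and 4 of these genes had a match to the interferon core or the NF-kappaB consensus, searched on both strands. FAS, CASP8 and CFLAR had several start sites, whereas the shares given for all promoters are of single windows and a single motif. No share over all genes was computed for such a count, so it does not set these genes apart. No match overlapped another. CFLAR also had an interferon core on the opposite strand at -111 to -103 of another start site, and the FADD window held none of these letters. RELA, a subunit of NF-kappaB, rose 1.205-fold from 110.6 ± 7.67 to 133.2 ± 7.70 CPM (SD, n = 3, log2 fold change 0.27, SE 0.06, edgeR adjusted p = 0.0016). NFKB1 was at 41.2 ± 2.36 and 45.5 ± 1.92 CPM (SD, n = 3) and was not called.

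Per length, the order of the 9 genes changed mainly through TNFSF10. With the control siRNA, FADD was highest at 65.3 ± 2.59 TPM, followed by TNFRSF10B at 51.65 ± 0.789, CFLAR at 26.4 ± 1.503, FAS at 22.3 ± 1.95, TNFRSF10A at 18.7 ± 1.18, CASP8 at 17.8 ± 1.15 and TNFSF10 at 12.9 ± 0.435 TPM (SD, n = 3). TNFRSF10A and CASP8 overlapped in that order. CASP10 and TNFRSF10D were lowest, at 0.113 ± 0.0289 and 0.0133 ± 0.0115 TPM (SD, n = 3). With the HOTAIR-N siRNA, FADD remained highest at 66.35 ± 4.01 TPM, and TNFSF10, at 49.7 ± 4.504 TPM, stood next and overlapped with TNFRSF10B at 44.4 ± 0.943 TPM (SD, n = 3). CFLAR at 36.5 ± 1.99 and FAS at 34.3 ± 2.06 TPM overlapped, followed by CASP8 at 27.5 ± 1.29, TNFRSF10A at 19.8 ± 1.15, CASP10 at 2.22 ± 0.220 and TNFRSF10D at 0.05 ± 0.05 TPM (SD, n = 3). TNFSF10 thus moved from the seventh place to the second, and CASP8 moved above TNFRSF10A.

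**Figure D3:**
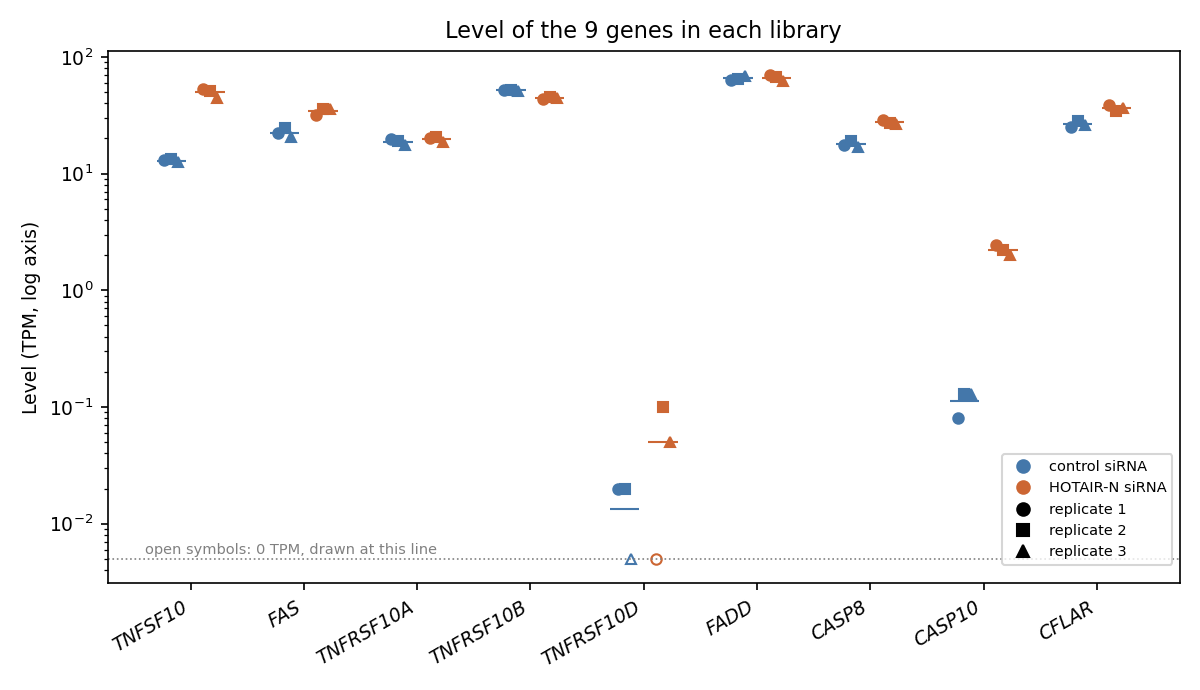
Level of the 9 genes (TPM, log axis) in each control siRNA (blue) and HOTAIR-N siRNA (orange) library, with lines at group means and open symbols for values of 0 TPM. FADD stayed highest in both groups, TNFSF10 rose from 12.9 to 49.7 TPM, and CASP10 stayed low after its rise, at 2.22 TPM.

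CFLAR, CASP10 and CASP8 lie next to each other on chromosome 2 in the RefSeq gene table, apart from the antisense gene CFLAR-AS1. All 3 rose, beside 36.2% of all tested genes called higher, and a shared rise of this region was not tested. CFLAR-AS1 had 2 counts in the control libraries together and 1 in the HOTAIR-N siRNA libraries. On the other side of CFLAR, NDUFB3, a subunit gene of mitochondrial complex I, went from 44.2 to 58.4 CPM (log2 fold change 0.40, SE 0.06, edgeR adjusted p = 3.83e-05). ALS2CR12, next to CASP8, had 8 counts against 23 and was not tested. The remaining neighbours of the receptor and ligand genes were CHMP7 beside TNFRSF10A, with a log2 fold change of 0.11 (SE 0.05, edgeR adjusted p = 0.0457), and LOC254896 beside TNFRSF10B, with 0.06 (SE 0.26, edgeR adjusted p = 0.839). GHSR and LINC02068 beside TNFSF10 and ANO1-AS2 beside FADD had at most 4 counts in either group and were not tested.

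The genes whose pattern over the 6 libraries lay closest to that of a member were found by the distance between log2 CPM values centred on the control mean. This is a description over 6 libraries that share their depth and scaling. For TNFSF10 they were S100A8 (distance 0.0772), TRIM34 (0.121) and USP18 (0.126), of which USP18 is a known interferon-stimulated gene. For CASP10 they were TMEM145 (distance 0.673), ANKRD1 (0.753) and LUM (1.03). For CASP8 they were SIPA1L2 (distance 0.0597), EPHA4 (0.0603) and PDLIM1 (0.062), and for CFLAR they were CYLD (0.0282), NDUFB3 (0.0429) and SBF2 (0.0439). CYLD, a deubiquitinase of the same pathway, and NDUFB3, the neighbour on chromosome 2, rose 1.31-fold and 1.32-fold.

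The other genes of the extrinsic pathway were described from a list of 52, of which 47 were tested. The edgeR quasi-likelihood test called 19 higher and 15 lower and did not call 13, against 71.1% called among all genes, and the median log2 fold change was 0.03, near the 0.02 of all genes. Of 3 tested ligand genes, 1 was called higher, which was TNF. It was at 2.63, 2.26 and 2.12 CPM with the control siRNA and at 7.41, 7.91 and 7.42 CPM with the HOTAIR-N siRNA, 3.23-fold higher without overlap (log2 fold change 1.69, SE 0.11, edgeR adjusted p = 4e-08). Of 8 tested receptor and decoy genes, 5 were called higher and 0 lower, beside 36.2% and 34.8% of all genes. They included the TNF receptor gene TNFRSF1B, which was at 0.270 ± 0.169 and 0.864 ± 0.255 CPM, a 3.19-fold rise (SD, n = 3, edgeR adjusted p = 0.0023), and NGFR, the low-affinity neurotrophin receptor, which was at 2.49 ± 0.645 and 7.36 ± 0.709 CPM, a 2.95-fold rise (SD, n = 3, edgeR adjusted p = 2.1e-06).

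Of 11 tested adaptors and partners of the death complexes, 9 were called lower, 1 higher and 1 not, beside 34.8% of all genes called lower and 36.2% higher. Their median log2 fold change was -0.48, and 2 of the 9, RIPK1 and ITCH, were not called with library totals or upper-quartile scaling. FAF1, a FAS-binding factor, was at 49.3, 54.2 and 50.1 CPM with the control siRNA and at 19.5, 18.4 and 19.0 CPM with the HOTAIR-N siRNA. Its groups were far apart, and it fell to 37.04% of control (log2 fold change -1.43, SE 0.06, edgeR adjusted p = 1e-09). CASP8AP2, a caspase-8 binding protein gene with roles in histone gene expression, fell to 61.5% of control (57.6 ± 3.75 to 35.4 ± 1.26 CPM, SD, n = 3, log2 fold change -0.70, edgeR adjusted p = 5.8e-07). FADD, the member of this role among the 9 genes, was not called.

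Of 6 tested genes of ubiquitin editing, 4 were called higher and 0 lower, a total near the 71.1% of all genes called. TNFAIP3, encoding A20, an NF-kappaB target that restrains the same signalling, rose 2.77-fold from 8.94 ± 0.780 to 24.8 ± 0.998 CPM (SD, n = 3, edgeR adjusted p = 5.6e-09). RBCK1, a subunit of the linear ubiquitin ligase, rose 1.35-fold (edgeR adjusted p = 2.1e-05). Of 5 inhibitors of apoptosis and their antagonists, 4 were called higher and 0 lower, beside 36.2% and 34.8% of all genes. BIRC3, encoding cIAP2, was at 21.6, 23.3 and 19.9 CPM against 73.1, 70.4 and 72.8 CPM and rose 3.34-fold (log2 fold change 1.74, SE 0.06, edgeR adjusted p = 3.5e-10), and HTRA2, a mitochondrial protease that counters such inhibitors, rose 1.35-fold (edgeR adjusted p = 3e-05). The risers in this role thus include both an inhibitor and an antagonist.

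Of 7 genes of other initiators and the mitochondrial link, 2 were called higher and 4 lower, beside 36.2% and 34.8% of all genes, and 2 of the 4, BID and APAF1, were not called with library totals. CYCS, the gene of cytochrome c, rose 1.64-fold (163 ± 15.2 to 268 ± 24.3 CPM, SD, n = 3, edgeR adjusted p = 3e-06), and the pore-forming BAX fell to 71.4% of control (26.9 ± 1.88 to 19.2 ± 0.947 CPM, SD, n = 3, edgeR adjusted p = 4.6e-05). Of 6 executioners and substrates, 1 was called higher and 2 lower, beside 71.1% of all genes called in either direction. DFFA, the inhibitor of the caspase-activated nuclease, fell to 67.2% of control (edgeR adjusted p = 9.7e-07) and the executioner CASP6 to 79.7% (edgeR adjusted p = 0.0014). For necroptosis, the lytic death that follows when caspase-8 is blocked, the effector gene MLKL rose 1.63-fold from 15.3 ± 0.0803 to 25.0 ± 0.379 CPM (SD, n = 3, edgeR adjusted p = 3.3e-07). Its activating kinase gene RIPK3 had 3, 2 and 2 counts against 1, 0 and 1 and was not tested. The sensor gene ZBP1 was not tested either, with 2, 0 and 0 counts against 27, 18 and 8.

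**Figure D4:**
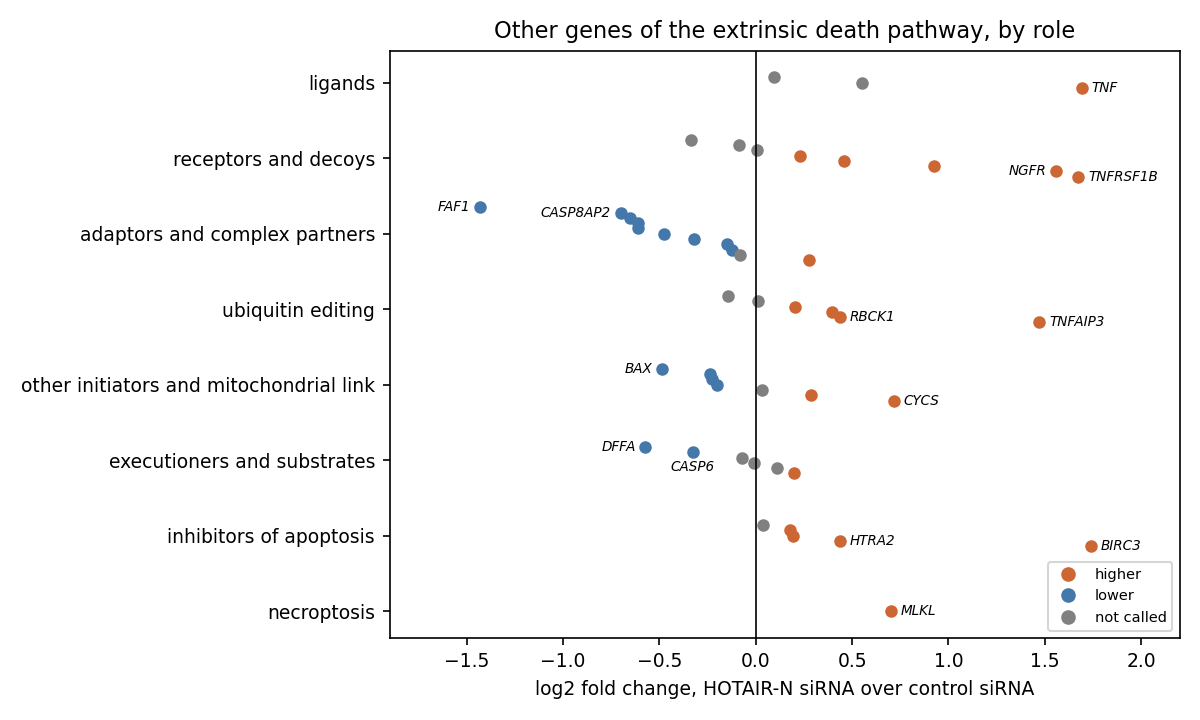
Log2 fold change (HOTAIR-N siRNA over control siRNA, horizontal axis) of the 47 tested genes of the wider pathway, in rows by role, with genes called higher in orange, lower in blue and not called in grey. Of the 11 adaptors and partners, 9 were called lower, beside 34.8% of all tested genes, and 2 of them, RIPK1 and ITCH, were not called with library totals or upper-quartile scaling.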

How the data were processed

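Each library has a gene table and a transcript table. Per the submitters' processing notes, the reads were handled with RSEM 1.3.0 and STAR 2.6.0c on the build hg19; their settings and the strand option are not given in the sources used here. Per the file headers, the deposited tables hold expected counts, TPM and FPKM (FPKM was not used here), and the transcript tables also hold each transcript's share of its gene in percent, which corrects for length.

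Here the expected counts were rounded, passed through filterByExpr (minimum count 10, minimum total 15), scaled by TMM and tested with the quasi-likelihood test of edgeR 4.0.16 (R 4.3.3), the edgeR test meant throughout, over all genes or transcripts of all 6 libraries, with Benjamini-Hochberg adjustment and calls under 0.05. A positive log2 fold change means higher with the HOTAIR-N siRNA, and 95% intervals of a fold use its SE with 4 residual degrees of freedom. Transcript shares (log2, offset 0.1 CPM) were tested with limma 3.58.1, with a variance trend on the transcript's mean level, a choice made on simulated data. Replicates of a group differed by more than sampling noise (lowest chi-square over its degrees of freedom 2.21).

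On simulated data for this comparison, the gene test (14919 genes) recovered 42%, 78%, 94% and 100% of 1.2-, 1.5-, 2- and 4-fold changes with 15 false calls. The transcript test (32285 transcripts) recovered 0%, 6%, 30% and 36% with 1 false call. Each of these simulations held 200 changed genes or transcripts, a far smaller share than the 71.1% of genes and 32% of transcripts called in the real data. An adjusted p under 0.05 is harder to reach when fewer features change, so these recoveries do not give the power in the real comparison. The share test (22584 transcripts) recovered 66% of 200 planted switches and called 19 genes falsely.

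The genes, lists, named-gene rule and tests were chosen with earlier results of these data known. Named are the 9 genes, 2 called genes per role of the pathway list with the largest absolute log2 fold change, neighbouring genes, 3 genes per pattern search (prior count 2), HOTAIR and regulators of these genes. Some items chosen by this rule are not reported here. CD68, COL1A1, ESR1, PGR, KRT18, CDH1, FASLG, RIPK1, ITCH, BID, APAF1, RIPK3, ZBP1 and the single transcripts were named after their values were seen. Promoters come from the RefSeq table (GRCh38.p14), and exons and coding lengths from GENCODE, matched for 29 of the 64 transcripts. The files use hg19, so RefSeq gene coordinates are not printed. Alternatives were DESeq2 size factors, DESeq2 1.42.0, library totals, no filter, limma-voom, upper-quartile scaling, 1 CPM in 3 libraries, a replicate block, libraries left out, a threshold of 0.01, an offset of 0.5 CPM and diffSpliceDGE.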

Additional observations from a re-analysis of the deposited data

How the results depend on the processing

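The 6 calls among the 9 genes (5 higher, 1 lower) held under all 16 alternatives run, with log2 fold changes of 3.63 to 4.32 for CASP10, 1.85 to 2.01 for TNFSF10, 0.53 to 0.69 for FAS, 0.54 to 0.68 for CASP8, 0.36 to 0.49 for CFLAR and -0.27 to -0.15 for TNFRSF10B. FADD changed sign with library totals (0.0918), upper-quartile scaling (0.0508), without control siRNA replicate 3 (0.024), without HOTAIR-N siRNA replicate 3 (0.0379) and with control 2 and HOTAIR-N siRNA replicate 3 both left out (0.0166), ranged from -0.0518 to 0.0379 with single libraries left out, and was never called (adjusted p of 0.19 to 0.99). Library totals alone moved the median of all genes by 0.098 and the share of calls that were higher from 51% to 60.3%. The pathway list had 30 to 39 calls, against 34, under the alternatives other than the threshold of 0.01, and RIPK1 was lost most often. With single libraries left out, RIPK1 lost its call when any library other than control 2 was left out, ITCH without HOTAIR-N siRNA 1 or 2, RNF31 without control 1 or 2 or HOTAIR-N siRNA 1 or 2 and BIRC2 without control 1 or 3 or HOTAIR-N siRNA 3.

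The transcript calls depend more on the setting. With the replicate block, 6219 transcripts were called in place of 10327, and NM_032977 of CASP10 was no longer called (log2 fold change 9.82, edgeR adjusted p = 0.052). The number of the 9 genes' transcripts with a called share, 1 with all libraries, was 0 with diffSpliceDGE, 0 with the replicate block (NM_003879, 1.33, limma adjusted p = 0.055), 0 with control 2 and HOTAIR-N siRNA 3 both left out, 2 with an offset of 0.5 CPM (adding NM_001306083, lower), and 1 to 2 with single libraries left out, where leaving out control siRNA replicate 2 added NM_001351591 of CFLAR. The short CFLAR form NM_001127184 was called with library totals, DESeq2, limma-voom, the 1 CPM filter and without control 2. The replicate numbers do not pair the libraries. Deviations from the group means correlated at 0.294, -0.606 and -0.521 for numbers 1, 2 and 3 over 8720 genes, and the control library 2 correlated best with number 3 of the HOTAIR-N siRNA (0.721). Depth limits TNFRSF10D, the CASP10 forms of the control cells and transcripts that share most of their sequence.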
